A study of Mus musculus with 51 samples.

Results

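The comparison is of 3 arrays on which each spiked gene was added at 1 pmol with 6 arrays that carried no spike (0 pmol). These 9 of the 51 arrays of the series were chosen by the spike amount in the sample titles, and 3 arrays at 2 pmol served only to choose which genes to follow. All were 2-colour spotted arrays hybridised with total RNA of a mouse B-cell hybridoma, the line CRL1606, made by fusing BALB/c spleen cells with the myeloma P3-X63-Ag8, grown in serum-free suspension culture and secreting an antibody against human fibronectin. On an array at 1 pmol, channel 1 held this RNA plus 100 added genes and channel 2 the same RNA plus a different 100. On an array at 0 pmol both channels held the hybridoma RNA with nothing added. The titles number the replicates, and no label says whether they came from separate cultures, so the spread behind each p-value may be technical only.

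In such a self-hybridisation the 2 channels share every transcript of the cell, and a gene of which more was added to one side is meant to have a displaced ratio. Spike-in arrays of this kind are used to judge how methods for picking changed genes perform when the changed genes are known. A hybridoma combines the antibody secretion of a B cell with the unlimited growth of a myeloma, but a ratio between 2 equal samples gives no expression level, so the labelled cell type could not be checked against its markers.

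The measurement was the log2 ratio of the 2 channels at each spot. The sources used here do not give the numerator channel, so ratios are called positive or negative only. Each array was centred on its median, the 2 spots of a probe were averaged, and values at the upper limit of the deposited scale were treated as missing. This left 7920 features (probes other than controls), of which 5348 carried a gene symbol. The labels do not name the genes that were added. Candidates for them were taken as the 100 features with the highest and the 100 with the lowest mean ratio on the 2 pmol arrays, among features measured on all 3 of those arrays with the same sign on each. The last positive candidate inside the limit had a mean of 3.99 and the first outside 3.89, and on the negative side these were -2.44 and -2.43. Neither the 1 pmol nor the 0 pmol arrays entered that choice.

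The arrays at 1 pmol stood apart from all the others in what they failed to measure. Spots without a usable value made up 12.7%, 50.1% and 29.9% of the spots of replicates 1, 2 and 3 at 1 pmol, against 0.593% to 4.71% on the 6 arrays at 0 pmol, and the highest share on any of the 48 other arrays of the series was 9.64%. Almost all of these were blank cells in the deposited table, 14657 at 1 pmol, and 14 were at the upper limit. The mean share was 30.9% ± 18.7 on the 1 pmol arrays (SD, n = 3), against 2.86% ± 1.34 on the 0 pmol arrays (SD, n = 6), a difference with p = 0.0238 in an exact two-sided permutation test over arrays and 0.0298 after Benjamini-Hochberg adjustment over 5 array measures. A p of 0.0238 is the smallest that 3 arrays against 6 allow. The 1 pmol arrays also had wider ratios than the 0 pmol arrays: the robust standard deviation over features was 0.784, 1.36 and 1.09 at 1 pmol. At 0 pmol it was 0.363 to 0.478 on replicates 1 to 3 and 0.684 to 0.749 on replicates 4 to 6. The groups again did not overlap (same exact permutation p). Among the 48 other arrays it reached 0.901, on replicate 6 at 0.05 pmol, above replicate 1 at 1 pmol. The paired spots of a probe correlated at 0.899, 0.839 and 0.843 within the 1 pmol arrays and at 0.617 to 0.805 within the 0 pmol arrays (same exact permutation p). Over the other 48 arrays this correlation had a median of 0.889 and reached 0.976. A higher correlation did not mean closer spots. The median gap between paired spots was 0.152, 0.277 and 0.236 at 1 pmol, against 0.137 to 0.195 at 0 pmol. The array medians before centring, -1.22, -2.43 and -1.62 at 1 pmol against -3.11 to -1.07 at 0 pmol, overlapped (exact permutation p = 0.762).

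After the paired spots were combined, 815, 3502 and 1927 features had no value on replicates 1, 2 and 3 at 1 pmol. Replicate 2 was missing 44.2% of all features. Of the 815 features missing on replicate 1, 725 (89.0%) were missing on replicate 2 as well, whereas 1661 (47.4%) of those missing on replicate 2 were missing there alone. Over the 3 arrays, 4070 features were measured on all 3, 1960 on 2, 1386 on 1 and 504 on none. A feature needed 2 measured arrays in each group to be tested, so 1890 features (23.9%) were lost and 6030 were tested. In genes, 868 of the 4201 named genes on the array (20.7%) had no tested probe, and 225 had no value at 1 pmol.

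**Figure D1:**
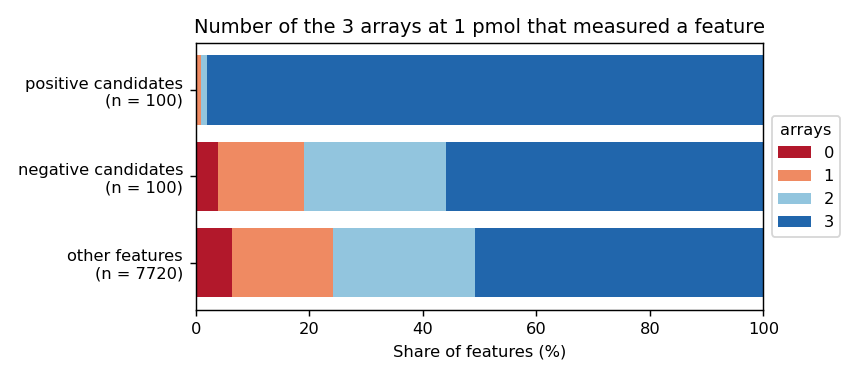
Share of features (%) measured on 0, 1, 2 or 3 of the arrays at 1 pmol, for the 100 positive candidates, the 100 negative candidates and the 7720 other features. Nearly all positive candidates (98) were measured on all 3 arrays, against 56 of the negative candidates and 50.7% of the other features.

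The losses fell unevenly on the candidates. Of the 100 positive candidates, 98 were measured on all 3 arrays and 1 was lost, whereas of the 100 negative candidates 56 were measured on all 3 and 19 were lost. Among the 7720 other features 24.2% were lost. On replicate 2, 43 negative candidates and 0 positive ones had no value. Within the negative candidates the losses were most frequent at both ends of their ranking: from the lowest to the highest 20 by 2 pmol mean, 8, 2, 1, 2 and 6 were lost. The negative candidates missing on replicate 2 had a median 2 pmol mean of -4.56, and those measured there -3.80. Deposited values under -9 occurred at 28 spots of the 1 pmol arrays (5, 14 and 9 by replicate) and at 0 spots of the 0 pmol and 2 pmol arrays. They were not particular to 1 pmol, since some arrays of other amounts had them too, at most 13 spots on replicate 4 at 0.25 pmol.

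The losses also followed the position on the array and the ratio a feature had elsewhere. Each print block has rows of 22 positions, and the columns were divided after the values had been seen. Among features that are no candidates, those in columns 2 to 12 were lost in 36.3% of cases and those in columns 13 to 21 in 7.07%. On the 1 pmol replicates 17.0%, 58.5% and 36.3% of the first set were missing, and 1.10%, 25.3% and 8.79% of the second, while at 0 pmol the means were 1.52% and 1.20%. The outer columns 1 and 22 lost 59.8%. Across the 48 blocks the lost share ran from 3.03% in block 19 to 53.9% in block 1. Candidates were not spread evenly over the columns, with 46 of the 200 in columns 7 and 8 and 54 in columns 20 and 21.

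**Figure D2:**
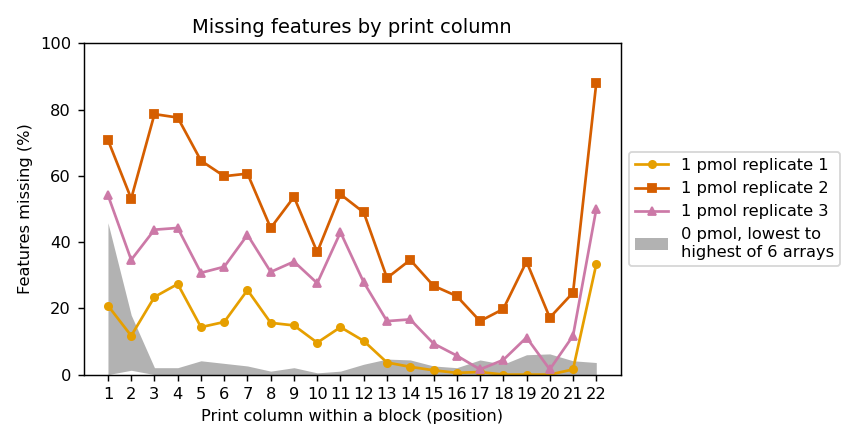
Percent of features missing in each of the 22 print columns, as a line for each array at 1 pmol and as a grey band from the lowest to the highest of the 6 arrays at 0 pmol. The lines at 1 pmol are high on the left and at column 22 and low from about column 13 to column 21, while the band is high only in the first columns.

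When the other features were put in 5 equal bins by their mean centred ratio over the other 48 arrays, 63.4% of the lowest bin and 15% of the highest were missing on replicate 2. The same shares were 14.2% and 2.66% on replicate 1, and 35.5% and 8.42% on replicate 3. The order was seen on both sides of the block: within columns 2 to 12, 45.7% of the lowest bin and 11.4% of the highest were lost, and within columns 13 to 21 13.7% and 2.06%. Whether brightness, position or the filter of the authors set these losses was not tested, since intensities were not used here.

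**Figure D3:**
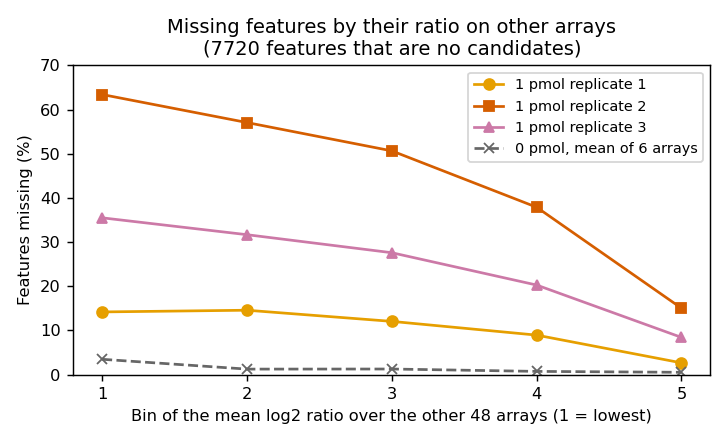
Percent of features missing by bin (5 of equal size) of the mean log2 ratio over the other 48 arrays, for the 7720 features that are no candidates, with a line for each array at 1 pmol and a dashed line for the mean of the 6 arrays at 0 pmol. All 3 arrays at 1 pmol missed fewest features in the highest bin, with 15% on replicate 2 against 63.4% in its lowest bin.

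In the ratios, the candidates were displaced on every 1 pmol array. The median positive candidate stood at 4.85, 5.96 and 5.09 on replicates 1 to 3 at 1 pmol, against 0.074 to 0.309 at 0 pmol. The median measured negative candidate stood at -4.47, -4.06 and -4.45 at 1 pmol, against -0.02 to 0.26 at 0 pmol. The separation of the 2 sets, taken as the distance between their medians divided by 2, was 4.81 ± 0.18 on the 1 pmol arrays (SD, n = 3), against 0.04 ± 0.03 on the 0 pmol arrays (SD, n = 6) (exact two-sided permutation p = 0.0238, adjusted 0.0298). The groups did not overlap.

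In a limma fit of the 9 arrays, 1748 of 6030 features passed an adjusted p under 0.05, a background of 29.0% (12% positive and 17.0% negative). Against that background, 99 of the 99 tested positive candidates and 76 of the 81 tested negative candidates were called, all with the sign they had at 2 pmol. A further 1573 calls (623 positive, 950 negative) were among the 5850 other features, with median differences of 1.42 and -1.63 on the log2 scale. When limma was allowed a spread of its own for each group, 740 features passed (12.3%, with 4.83% positive and 7.45% negative), all of them among the 1748, and these held 98 positive candidates, 74 negative candidates and 568 others. In that fit the estimated variance at 1 pmol was 4.69 times that at 0 pmol. Set against replicates 1 to 3 of the 0 pmol arrays alone the limma count was 660, and against replicates 4 to 6 alone 1567. Over features measured on all 9 arrays the median standard deviation across arrays was 0.49 at 1 pmol and 0.33 at 0 pmol, but 0.19 within replicates 1 to 3 and 0.16 within replicates 4 to 6 at 0 pmol.

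The other features had ratios that moved with position as well. In columns 2 to 12 their medians were -0.37, -0.43 and -0.46 on the 1 pmol arrays and between -0.148 and 0.08 at 0 pmol, and 882 of 2614 were called, 612 of them negative. In columns 13 to 21 the medians were 0.23, -0.02 and 0.11 at 1 pmol and -0.07 to 0.14 at 0 pmol, and 681 of 3140 were called, 333 of them negative. With each block and column centred, an alternative added after the data had been seen, limma called 1444 of the other features, against 1573 without it, and the part of position in these calls was not tested further.

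The largest positive differences among genes measured on all 3 arrays were all of candidates. Tlr1, a Toll-like receptor that recognises bacterial lipopeptides together with Tlr2, had centred log2 ratios of 7.91, 8.52 and 7.83 on the 1 pmol arrays, against -1.77, -0.70 and -0.32 at 0 pmol (lowest, median and highest of 5 measured arrays). Every 1 pmol array was far above every 0 pmol array, and the difference was 8.95 ± 0.35 (SE, limma adjusted p = 2.85e-07). Cald1, the actin-binding protein caldesmon, read 6.87, 7.66 and 7.11 at 1 pmol against -2.82, -1.17 and -0.13 at 0 pmol, a difference of 8.54 ± 0.60. Its 0 pmol arrays spread more widely than its 1 pmol arrays. Sspn, the sarcospan of the dystrophin complex, read 7.35, 8.84 and 7.91 at 1 pmol against -0.87, -0.30 and -0.19 at 0 pmol. Cpsf6, a subunit of the factor that cleaves pre-mRNA before polyadenylation, read 7.93, 9.02 and 7.99 at 1 pmol against -0.20, 0.44 and 1.02 at 0 pmol. For both genes replicate 2 was the highest of the 1 pmol arrays, and the differences were 8.43 and 7.88.

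E2f4, a transcription factor that represses cell cycle genes, read 7.37, 8.73 and 9.03 at 1 pmol against 0.53, 0.71 and 0.83 at 0 pmol. The remaining positive genes of the 12 were Slc2a5, a fructose transporter (difference 7.76), Tpbg, a trophoblast glycoprotein (7.69), Cdc42bpg, a kinase bound by Cdc42 (7.34), Ppp2r1b, a scaffold subunit of protein phosphatase 2A (7.28), Cltb, a clathrin light chain (7.25), Atp2b2, a plasma membrane calcium pump (6.87), and Nkain2, a protein that interacts with the sodium pump (6.70). The 12 were chosen as the highest called differences, so their lack of overlap between the groups adds nothing to the calls.

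The 12 lowest differences among genes measured on all 3 arrays were smaller in size, between -6.82 and -5.18. Nr3c1 (-7.30) and Fem1c (-7.09), each measured on 2 arrays at 1 pmol, had lower ones. Of the 20 negative candidates with the lowest 2 pmol means, only 6 were measured on all 3 arrays at 1 pmol. Tcra, the alpha chain of the T-cell receptor, read -6.46, -6.74 and -6.28 on the 1 pmol arrays against -0.28, 0.32 and 0.79 at 0 pmol, a difference of -6.82 ± 0.27 (limma adjusted p = 1.82e-07). Ctse, the aspartic protease cathepsin E, differed by -6.56 and Rrn3, an initiation factor of RNA polymerase I, by -6.42. Papola, a poly(A) polymerase, read -5.94, -7.16 and -3.15 at 1 pmol against 0.11, 0.49 and 0.82 at 0 pmol, and it had the highest adjusted p of the 24 named genes (0.000148, limma). Replicate 3 was closest to 0 for Papola, though still outside the 0 pmol range. Its 2 spots there disagreed, with deposited values of -7.833 and -1.71. The others were Iqgap2, a scaffold protein (-6.22), Nfe2l1, a transcription factor of proteasome genes (-6.05), Nagk, an N-acetylglucosamine kinase (-5.89), Ssbp2, a single-stranded DNA binding protein (-5.72), Syncrip, an RNA-binding protein (-5.39), Mapk12, a p38 kinase (-5.29), and Nap1l4, a histone chaperone (-5.18).

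Slc25a44, a mitochondrial carrier, was the only 1 of these 24 that was no candidate. It read -6.09, -6.87 and -6.09 at 1 pmol against -0.25, -0.03 and 0.27 at 0 pmol, and its 2 pmol arrays ran from -7.04 to 0.08. Fkbp9, a prolyl isomerase of the endoplasmic reticulum, was in the same position on the positive side, with 5.35, 6.43 and 5.59 at 1 pmol against -0.01, 0.34 and 0.52 at 0 pmol, and 2 pmol arrays from -0.38 to 5.49. For both genes a 2 pmol array with a ratio near 0 kept them out of the candidates. Among features measured on all 3 arrays, the others outside the candidates with large differences were Baiap3 (5.73), Fhod1, a formin (4.77), Tcea3, a transcription elongation factor (4.35), Pmaip1, a pro-apoptotic protein (-4.68), Gm8369 (-4.64) and Maml2, a Notch coactivator (-4.41). They were displaced in the same direction at 2 pmol, but not past the candidate limits of 3.99 and -2.44. The 2 pmol means were 3.87 for Baiap3, 3.76 for Fhod1 and 3.47 for Tcea3. For Pmaip1, Gm8369 and Maml2 they were -2.09, -1.92 and -1.36. For Pmaip1 the 1 pmol arrays read -2.97, -2.99 and -7.39, so replicate 3 lay well below the other 2.

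**Figure D4:**
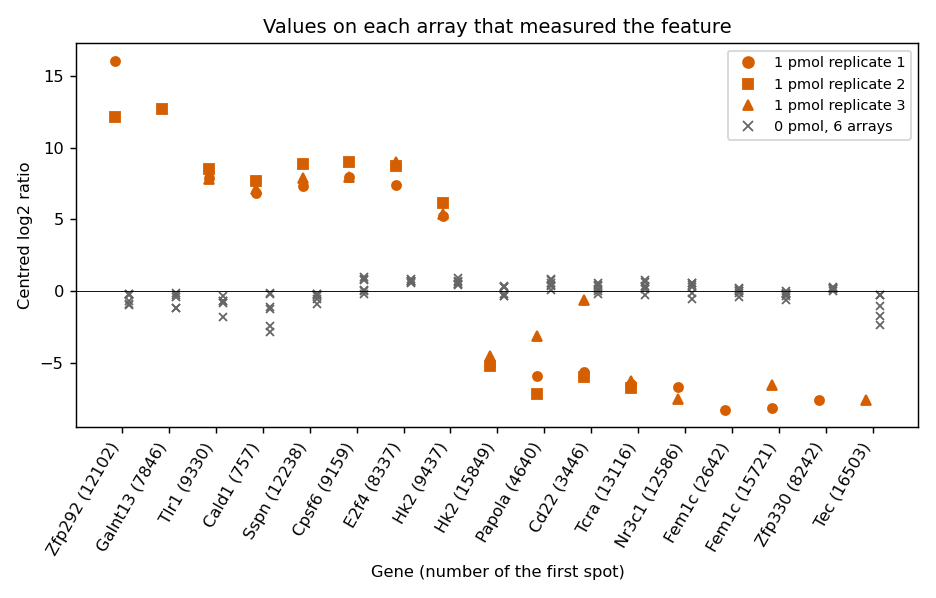
Centred log2 ratio of selected candidate genes on each array that measured them, with the 1 pmol replicates as orange circles, squares and triangles on the left of each gene and the 6 arrays at 0 pmol as grey crosses on the right. Genes with fewer than 3 orange points, such as Galnt13 with 12.68 on replicate 2, lacked a value on the other 1 pmol arrays.

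Several of the genes with the most extreme ratios were measured on only some 1 pmol arrays. Zfp292, a zinc finger protein, had a probe at 16.06 on replicate 1 and 12.16 on replicate 2 and blank on replicate 3, against -1.0, -0.48 and -0.20 at 0 pmol, a difference of 14.65 ± 0.81 (limma adjusted p = 1.82e-06). The value of 16.06 rested on 1 spot, deposited as 14.838, with its partner blank. The second probe of Zfp292 read 0.32, 1.82 and 0.13 at 1 pmol and did not pass (difference -0.01), so the 2 probes of this gene did not move together. Galnt13, which starts mucin-type sugar chains, had the highest 2 pmol mean of all features, yet was blank on replicates 1 and 3 and read 12.68 on replicate 2. With the values at the upper limit left out, deposited values above 10 occurred at 4 spots of the 1 pmol arrays, all of these 2 genes, and at 0 spots of the 0 pmol and 2 pmol arrays.

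Nr3c1, the glucocorticoid receptor, read -6.66 and -7.55 on replicates 1 and 3 at 1 pmol and was blank on replicate 2, against -0.54, 0.36 and 0.58 at 0 pmol, a difference of -7.30 ± 0.38 (limma adjusted p = 1.23e-06). Its second probe read -0.64 and -1.55 at 1 pmol against -0.58, -0.39 and -0.12 at 0 pmol, and did not pass (limma adjusted p = 0.0923). One probe of Fem1c, a substrate receptor of a cullin ubiquitin ligase, read -8.15 and -6.52 with replicate 2 blank, a difference of -7.09, and the other had a value only on replicate 1 (-8.28). Eif4a2, an RNA helicase of translation initiation, differed by -6.73 on replicates 1 and 3. Tmcc1 (5.55) and Gmds, an enzyme of GDP-fucose synthesis (3.96), were the 2 positive ones after Zfp292, and their measured 1 pmol arrays differed by more than 2 log2 units from each other. Neither was a candidate, with 2 pmol means of 0.10 for Tmcc1 and 0.86 for Gmds. Both 1 pmol values of Tmcc1 and that of Gmds on replicate 2 rested on 1 spot each. So did the -8.15 of Fem1c and the value of Eif4a2 on replicate 3. The call of Tmcc1 was lost when the replicate number was added to the fit (the replicate block). That of Gmds was lost with the replicate block and after quantile normalisation.

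Besides Galnt13, 14 named negative candidates were lost. Topbp1, a DNA damage checkpoint protein, had only -7.39 on replicate 1, Zfp330 only -7.62 on replicate 1, Prkaca, a catalytic subunit of protein kinase A, only -6.98, Chkb, a choline kinase, only -6.60, and Spag5, a spindle protein, only -7.26, all on replicate 1. Tec, a kinase of B-cell receptor signalling, had only -7.62 on replicate 3, from 1 spot, and Nostrin, a regulator of nitric oxide synthase trafficking, had no value. For each of these but Nostrin the single measured value lay beyond all 0 pmol arrays.

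**Figure D5:**
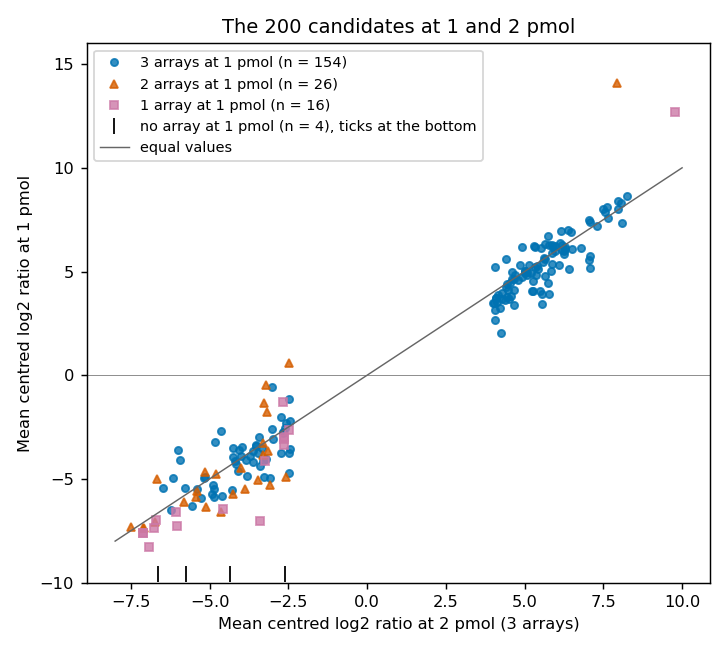
Mean centred log2 ratio of the 200 candidates at 1 pmol (y axis) against 2 pmol (x axis), with the symbol giving the number of 1 pmol arrays that measured the feature and ticks at the bottom for the 4 measured on none. The positive candidates measured on all 3 arrays lie around the line of equal values, and Zfp292 (triangle) and Galnt13 (square) lie well above it.

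Beside the 2 pmol arrays, on which the candidates were chosen, the ratios at 1 pmol were close in size for candidates measured on all 3 arrays. Candidates measured on fewer 1 pmol arrays, among them Zfp292, Galnt13 and Fem1c, were left out of these medians. For the 98 positive candidates measured on all 3 arrays the median of the 1 pmol mean minus the 2 pmol mean was -0.14, and by array it was -0.56, 0.46 and -0.26. For the 56 negative candidates it was -0.09, and by array -0.19, -0.12 and -0.30. On all 3 arrays at 1 pmol 97 of the 98 and 55 of the 56 had the 2 pmol sign. Across all features measured on both, the 1 pmol arrays correlated with each other at 0.635 to 0.666, below the 0.868 to 0.939 among the 2 pmol arrays.

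Gene lists of pathways and cell types were described by their counts, beside 29.0% of all features called and a median difference over all features of -0.18. The counts include called candidates for the added genes, among them Tlr1, Cd22, Nr3c1, E2f4, both Hk2 probes, Ndufa2, Krt18, Zfp292, Zfp248 and Zfp644. They numbered 2 for Toll-like and B-cell signalling, 2 for glycolysis and 4 for the Zfp family. There was 1 each for the steroid receptor pathway, the cell cycle, oxidative phosphorylation and the list of liver, muscle, nerve and stroma. Of the 10 tested probes of Toll-like receptor and B-cell signalling genes, 5 passed (2 positive, 3 negative), including Tlr1, Cd22, an inhibitory receptor of B cells, and Traf6, an adaptor ubiquitin ligase (-1.54). Cd22 read -5.63, -6.0 and -0.60 on the 1 pmol arrays against -0.22, 0.23 and 0.54 at 0 pmol, so replicate 3 was the closest to the 0 pmol arrays. That value of Cd22 rested on 1 spot. Irak2, Malt1 and Tec were lost. Of 7 tested probes of the steroid receptor pathway 3 passed, Nr3c1 with Tsc22d3 (0.82), a glucocorticoid target, and 1 probe of Ncoa2 (-0.81), a coactivator, of which only Nr3c1 passed with a spread for each group. The call of Ncoa2 was also lost without 1 pmol replicate 2 and without any 1 of 0 pmol replicates 1 to 5.

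Of 7 tested probes for glycolysis 5 passed, among them both probes of hexokinase Hk2 in opposite directions, with 5.27, 6.11 and 5.39 for one and -5.16, -5.20 and -4.53 for the other on the 1 pmol arrays, against -0.33 to 0.93 over both probes at 0 pmol. Pfkm, a phosphofructokinase, differed by -2.40. Of 7 tested probes of folding and secretion in the endoplasmic reticulum 2 passed, Sec61b (-4.14) and Sel1l (-2.29), and Ern1, Sec61a1 and the second Sel1l probe were lost. Sec61b, a translocon subunit, rested on replicates 1 and 3, at -0.39 and -6.63, and the value on replicate 3 came from 1 spot. Of 10 tested cell cycle probes 5 passed, including E2f4, Plk1 (-2.68) and Aurka (-1.68), 2 mitotic kinases. Of 4 tested probes of oxidative phosphorylation 3 passed, all negative, with Ndufa2 at -4.39, Atp5b at -2.58 and Ndufa4 at -0.71. Ndufa4 did not pass with a spread for each group, and the calls of Ndufa4 and Sec61b were lost without any 1 of the 0 pmol replicates.

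Few probes of other cell types or of plasma cells were on the array, and a ratio cannot give their level. The 1 tested plasma cell probe (difference -0.75) and the 2 ribosomal protein probes (-0.46 and -0.04) did not pass, whereas 1 of 4 T, NK and myeloid probes did (Cd28, -0.90), and 5 of 12 probes of liver, muscle, nerve and stroma did, among them Krt18, a keratin (4.08), Des, desmin (-2.61), and Myh6, a cardiac myosin (-2.49). Cd28, Des and Myh6 were each measured on 2 of the 1 pmol arrays. Des read -1.47 on replicate 1 and -3.46 on replicate 3. Myh6 read -0.42 on replicate 1 and -3.97 on replicate 2. The lower value of Des and that of Myh6 each came from 1 spot. Cd28 and Myh6 did not pass with a spread for each group, and both lost their call when single 0 pmol arrays were left out. The Zfp family of zinc finger genes lost 35 of its 98 probes (35.7%), against 25.0% of all features with a symbol, and 53 of the 98 (54.1%) lay in columns 2 to 12, as did 52.5% of all features with a symbol. Of its 63 tested probes 14 passed, 5 of them positive, including Zfp292, Zfp248 (4.37) and Zfp644 (4.34), and 9 negative, and the median difference over the tested probes was -0.21. Over the whole array, 843 genes had several probes, 66 of these had at least 2 called probes, and in 30 of the 66 the called probes went in opposite directions. Of all calls 41.3% were positive, so called probes of unrelated genes would often differ in direction too. Whether probes of the same gene differed from unrelated ones in this was not tested.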

How the data were processed

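Per spot, the values that the authors deposited for 51 arrays are log2 ratios. The log base was read from the values, while background correction, normalisation, spot filter and numerator are not given in the labels. Groups came from the sample titles. Arrays were centred on the median of spots other than controls, spots 22 positions apart were averaged, and values at the upper limit of the scale were set to missing. Blocks hold 352 spots, and the 528 control probes were left out. Symbols were updated through Entrez identifiers with RefSeq (GRCm38.p6, names only; 10766 of 16896 spots matched). Depth is not defined for ratios, so the number of arrays limits the precision.

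Features measured on at least 2 arrays of each group were tested with limma 3.58.1 (lmFit and eBayes, R 4.3.3), two-sided, with Benjamini-Hochberg adjustment over all 6030. Single values per array were tested with exact permutation tests (84 splits, scipy 1.17.1). The fit was also run on simulated data with independent normal errors and no effects of array position or replicate set. That run does not show how the fit behaves on these arrays, and its outcome is not given here. The members and gene lists were chosen with earlier results of these data known. Named genes were Tlr1, Nr3c1 and Zfp292; the 12 highest and 12 lowest called differences among genes on all 3 arrays; the 3 each way on exactly 2 arrays; lost candidates with the most extreme 2 pmol means; up to 3 called and 3 lost members of each of 11 lists; and the 4 highest and 4 lowest called features outside the candidates on all 3 arrays. Alternatives changed centring, scaling, missing values, the fit, the 0 pmol arrays used and each replicate. No sequence is shown, because no result rests on one.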

Additional observations from a re-analysis of the deposited data

Results flagged for a closer look

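Of 89 groups of 0 pmol values checked for a single array far from the others, 3 (3.37%) were picked out, and chance picks out about 1 in 20. Baiap3 had -1.38 on replicate 5 at 0 pmol, with the next array at -0.45 and the highest at 0.10. Ncoa3 had -0.77 on replicate 5 at 0 pmol, with the next at -0.33 and the highest at -0.08. Mcm4 had 0.36 on replicate 4 at 0 pmol, with the next at -0.10 and the lowest at -0.34. The 3 arrays at 1 pmol are too few for this check.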

How the results depend on the processing

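Against 1748 calls, the limma count was 408 without centring (237 positive, 171 negative), 1148 after quantile normalisation, 740 with a spread for each group, 660 against 0 pmol replicates 1 to 3 alone (348 positive, 312 negative) and 335 with the replicate block (200 positive, 135 negative); the other 19 settings stayed within 1.5 times, the lowest 1265 and the highest 2562. The deviations of same-numbered arrays correlated at 0.07, -0.08 and 0.04, and those of differently numbered arrays at -0.07 to 0.11. So few correlations cannot decide whether the numbers pair the arrays. The candidates called with their 2 pmol sign numbered 144 to 176. The share of positive calls, 41.3%, was 58.1% without centring, 52.7% against 0 pmol replicates 1 to 3 alone and 59.7% with the replicate block. The median of all differences moved by 0.27 without centring, 0.11 with arrays scaled to one spread, 0.12 after quantile normalisation, 0.16 with both spots measured and 0.13 without 1 pmol replicate 2. Separation was 2.36 with scaled arrays and 4.72 to 4.89 without each 1 pmol replicate, where 0.0714 is the smallest exact permutation p. Features lost numbered 504 when measured on none, and 2189 to 3809 without each 1 pmol replicate (3809 without replicate 1, 3592 without replicate 3). Of the 57 called named features 41 kept their call in every setting that could be run for them (20 to 24 of the 24), among them the 12 highest and 12 lowest on all 3 arrays (23 or 24 settings). The 12 highest and 12 lowest were chosen for the size of their called differences, and the settings reused these arrays. Keeping their calls is therefore no independent support. Calls of Ndufa4, Ncoa2, Cd28, Myh6 and Sec61b were lost when single 0 pmol replicates were left out, and those of Cd22, Traf6, Pmaip1, Aurka, Sel1l and Des against 0 pmol replicates 1 to 3 alone. No missing value was filled in.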
